A study of Mus musculus with 8 samples.

Results

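The genes described here encode the nuclear subunits of complexes I, II and III of the mitochondrial respiratory chain, measured in whole mouse lung. They are the genes whose symbol is Ndufa, Ndufb, Ndufc, Ndufs or Ndufv with a number, Sdha to Sdhd, or begins with Uqcr. RefSeq lists 49 such symbols, and 48 of them had a probe on the array, since no probe was matched to Ndufb1. Each gene was read from its brightest probe, and all 48 genes were well above background on all 8 arrays. They are 48 of 28992 genes or accessions with a usable probe. By symbol, complex I accounts for 36 of them, complex II for 4 and complex III for 8. The 36 include Ndufa4, which was first assigned to complex I and is now placed in complex IV.

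Complex I takes electrons from NADH through a flavin and a series of iron-sulfur clusters and passes them to ubiquinone, pumping protons across the inner mitochondrial membrane. Complex II oxidizes succinate in the citrate cycle and feeds its electrons into the same ubiquinone pool without pumping protons. Complex III passes electrons from ubiquinol to cytochrome c, which carries them to complex IV. In lung, ciliated cells, alveolar type II cells and the cardiomyocytes around the pulmonary veins are known to be rich in mitochondria.

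All groups were female BALB/c mice that had their feed for 70 days, bought at 4 weeks of age and housed for 2 weeks before feeding began. NT mice ate standard feed and received no ovalbumin (OVA). Ctrl-F mice ate standard feed, Cap-F mice ate feed with 1 mg per g of carbonate apatite particles, and ODNcap-F mice ate feed with the same dose of particles that carried a CpG oligodeoxynucleotide. These 3 groups were immunized with 1 µg of OVA in 2 mg of aluminium gel into the peritoneum on Days 42, 49 and 56 and inhaled a 2% OVA aerosol from Day 63 to Day 69. Lungs were taken on Day 70, with 2 mice in each group and 1 array for each mouse, so the number of arrays limits the precision of every value. In RNA from a whole lung, fewer cells of a type and less RNA per cell cannot be told apart.

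The 8 arrays lay on 1 slide. NT and Ctrl-F were in 1 row of the slide and Cap-F and ODNcap-F in the other, so row and group cannot be told apart when Cap-F or ODNcap-F is set against NT or Ctrl-F. The share of probes read well above background ran from 61.3% to 65.0% over the arrays, no spot was saturated, and mice of a group correlated at 0.994 to 0.996 over all kept probes. Below, a level is a quantile-normalized log2 intensity, and a difference is the first group minus the second on that log2 scale. A gene was called when limma's test, fitted across all 37116 kept probes, gave a Benjamini-Hochberg adjusted p under 0.05, and "rose" and "fell" are used only of called genes.

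OVA-exposed lungs of the Ctrl-F group had higher levels of many of these genes than NT lungs. In Ctrl-F against NT, 24 of the 48 rose and 4 fell. The largest rises were in Sdhd, the small membrane anchor of complex II, at 1.70-fold, and in Uqcrfs1, the Rieske iron-sulfur protein of complex III, at 1.58-fold. Ndufa1, a small membrane subunit of complex I, and Uqcrq, a small subunit of complex III, each rose 1.56-fold. No member passed 2-fold, a size that 22.8% of all genes tested passed together with the adjusted p.

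The 24 rises were 50% of the members, beside 26.2% of all genes tested that rose and 33.8% of the 6244 genes at least as bright as the dimmest member. The 4 falls were 8.33% of the members, beside 35.7% of all genes tested and 34.6% of the bright genes. In either direction 58.3% of the members were called, beside 61.9% of all genes tested, a share near the background, and rises outnumbered falls among the members but not among all genes. The members' median difference was 0.21, against -0.12 over all genes tested and -0.01 over the bright genes. The lowest and highest members were at -0.26 and 0.77. In 36 members both Ctrl-F mice lay above both NT mice and in 9 both lay below, where 35.5% of all genes tested were apart upward and 48.5% downward.

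The share of members that rose depended on having both mice of each group. The number called went from 28 to 14 without NT mouse 1, 15 without NT mouse 2, 13 without Ctrl-F mouse 1 and 15 without Ctrl-F mouse 2. In these fits 27.1% to 31.2% of the members and 27.2% to 28.8% of the bright genes were higher, which are close to each other, while at most 2.08% of the members and 28.6% to 29.5% of the bright genes were lower. By the local-pooled-error test 25% of the members and 29.5% of the bright genes were higher, and none of the members and 30.9% of the bright genes were lower. The members' median stayed between 0.17 and 0.23 when any 1 mouse was left out.

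The falls depended on how the arrays were scaled. When each array was divided by its 75th percentile in place of quantile normalization, 39 members rose and none fell by limma's test in Ctrl-F against NT, and the median difference was 0.40 where that of the bright genes was 0.14. In that scaling 43.8% of the bright genes rose and 26.7% fell. All 24 genes called higher after quantile normalization were also called higher in it. In all, 46 members were above 0, and the other 2, Ndufs7 and Ndufa5, were at -0.01 and -0.02.

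**Figure D1:**
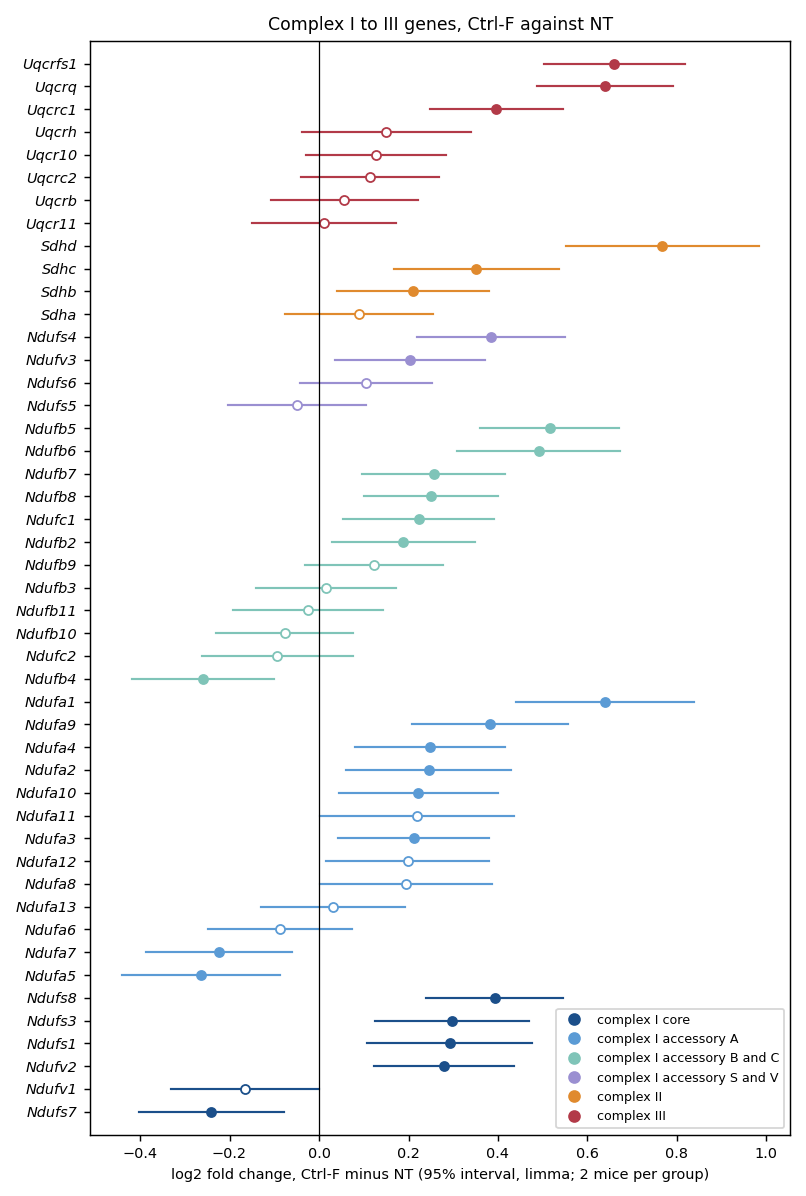
Difference between Ctrl-F and NT for 47 of the 48 genes (x axis, log2 fold change, Ctrl-F minus NT; y axis, genes grouped and coloured by class). Points are the fitted difference and bars its 95% interval from limma with 2 mice a group; filled points passed the adjusted p of 0.05, and 24 filled points lie right of 0 and 4 left of it.

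**Figure D2:**
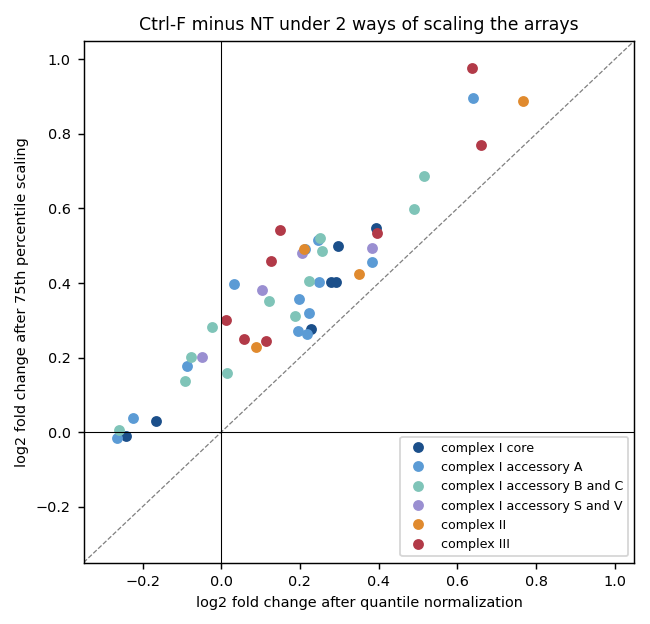
The same difference after quantile normalization (x axis, log2 fold change) and after 75th percentile scaling (y axis, log2 fold change), 1 point per gene, coloured by class, with the line of equality dashed. Every point lies above the dashed line, and the genes left of 0 on the x axis, which include the 4 that fell, lie from just below 0 upward on the y axis.

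The promoters of 5 members are printed to show the sequence context of genes that rose (Sdhd, Uqcrc1, Ndufs8, Ndufs4) and of 1 that fell after quantile normalization only (Ndufs7). RefSeq promoter windows of GRCm38.p6 hold 250 bases before the transcription start and 50 after it, and 40 of the 48 members had one. Capitals mark exact matches, on either strand, to motifs of factors known to act on respiratory chain genes: GCATGCGC, the core of the longer NRF1 motif, CCGGAAG for ETS factors such as GABP, AAGATGGC for YY1 and TCAAGGTCA for the estrogen-related receptors.
Sdhd, chr9:50603800-50604099 (- strand): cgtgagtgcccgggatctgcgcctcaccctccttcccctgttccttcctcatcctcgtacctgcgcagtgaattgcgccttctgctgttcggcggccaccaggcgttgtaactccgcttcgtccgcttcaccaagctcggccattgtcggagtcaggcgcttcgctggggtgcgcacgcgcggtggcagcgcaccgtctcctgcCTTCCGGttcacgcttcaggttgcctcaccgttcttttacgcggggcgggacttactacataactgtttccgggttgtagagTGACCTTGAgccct
Uqcrc1, chr9:108936398-108936697 (+ strand): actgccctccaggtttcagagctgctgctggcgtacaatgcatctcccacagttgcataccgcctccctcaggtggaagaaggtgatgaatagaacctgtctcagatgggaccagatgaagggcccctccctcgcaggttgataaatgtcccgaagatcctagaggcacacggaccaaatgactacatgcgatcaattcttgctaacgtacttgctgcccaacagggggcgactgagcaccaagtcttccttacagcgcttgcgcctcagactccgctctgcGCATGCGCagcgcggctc
Ndufs8, chr19:3912725-3913024 (- strand): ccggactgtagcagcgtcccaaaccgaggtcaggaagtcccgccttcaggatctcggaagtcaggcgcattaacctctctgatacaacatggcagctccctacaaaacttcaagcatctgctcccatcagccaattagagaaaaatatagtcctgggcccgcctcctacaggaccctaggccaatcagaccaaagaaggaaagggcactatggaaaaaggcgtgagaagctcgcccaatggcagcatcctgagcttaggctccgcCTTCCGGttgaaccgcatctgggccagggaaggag
Ndufs4, chr13:114388045-114388344 (- strand): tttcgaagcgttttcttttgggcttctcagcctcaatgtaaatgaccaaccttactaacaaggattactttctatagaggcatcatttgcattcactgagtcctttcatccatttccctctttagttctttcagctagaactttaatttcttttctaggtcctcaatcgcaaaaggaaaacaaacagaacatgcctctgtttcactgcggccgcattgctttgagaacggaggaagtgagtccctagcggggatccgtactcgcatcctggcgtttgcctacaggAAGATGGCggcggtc
Ndufs7, chr10:80249199-80249498 (+ strand): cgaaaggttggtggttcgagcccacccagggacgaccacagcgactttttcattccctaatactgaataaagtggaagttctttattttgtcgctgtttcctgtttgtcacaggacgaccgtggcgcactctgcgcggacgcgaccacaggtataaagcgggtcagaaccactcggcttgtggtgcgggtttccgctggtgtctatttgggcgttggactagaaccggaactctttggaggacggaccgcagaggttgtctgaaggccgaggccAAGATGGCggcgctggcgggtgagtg

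The Sdhd window held an ETS match and a match to the estrogen-related receptor motif, both on the reverse strand. Uqcrc1 held the longer NRF1 motif 30 bases after the start, and with it the core on both strands, of which the forward one is in capitals. Ndufs8 held an ETS match on the reverse strand. Ndufs4 and Ndufs7 both held the YY1 letters, so these letters stood in a promoter of a gene that rose and in that of one that fell. Every printed window held a match, while 19 of the 40 members with a window did, so the printed ones do not stand for the members. Of the 4 members that fell, Ndufs7 was the only 1 with a match.

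Over the 40 windows, the NRF1 core was in 6 members (15%) and in 3.05% of the 27025 genes with a window, and the longer NRF1 motif was in 2 members (5%) and 1.07% of all genes. The YY1 letters were in 7 members (17.5%) and 3.19% of all genes, at 22 to 38 bases after the start in each of those members. ETS matches were in 8 members (20%) and 9.93% of all genes. The estrogen-related receptor motif was in 1 member (2.5%), Sdhd, and 0.466% of all genes. Any of the motifs was found in 12 of the 20 members that rose and had a window, 1 of the 4 that fell and 6 of the 16 not called, beside 15.3% of all genes. A match describes letters only, and the arrays do not measure binding.

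Of the 7 core subunits of complex I, which carry the flavin and the iron-sulfur clusters, 4 rose and 1 fell in Ctrl-F against NT. These were 57.1% and 14.3% of the class, beside 33.8% and 34.6% of the bright genes. Each class described here is small, so its share rests on few genes. Ndufs8, which holds iron-sulfur clusters near the quinone site, was at 13.08 and 13.09 (NT), 13.47 and 13.49 (Ctrl-F), 13.40 and 13.34 (Cap-F) and 13.47 and 13.43 (ODNcap-F). All OVA-exposed mice lay above both NT mice, and the Ctrl-F difference was 0.39 ± 0.06 (SE; adjusted p = 0.00254). Ndufv2, which carries an iron-sulfur cluster of the NADH-binding end, was at 12.81 and 12.81 (NT), 13.11 and 13.07 (Ctrl-F), 13.07 and 13.00 (Cap-F) and 13.14 and 13.10 (ODNcap-F). It rose by 0.28 ± 0.06 (SE; adjusted p = 0.0109) in Ctrl-F. Ndufs1, the largest core subunit, was at 12.22 and 12.29 (NT), 12.53 and 12.57 (Ctrl-F), 12.56 and 12.48 (Cap-F) and 12.61 and 12.49 (ODNcap-F). Its difference was 0.29 ± 0.08 (SE; adjusted p = 0.0166), and again no OVA-exposed mouse reached down to an NT mouse. Ndufs3, a core subunit of the arm that stands in the matrix, was at 13.35 and 13.45 (NT), 13.72 and 13.67 (Ctrl-F), 13.57 and 13.61 (Cap-F) and 13.70 and 13.67 (ODNcap-F). It rose by 0.30 ± 0.07 (SE; adjusted p = 0.012).

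The other core subunits did not rise. Ndufv1, which binds NADH and the flavin, had the largest p of the class in Ctrl-F against NT, and was at 13.64 and 13.63 (NT), 13.50 and 13.43 (Ctrl-F), 13.46 and 13.49 (Cap-F) and 13.59 and 13.50 (ODNcap-F). The Ctrl-F mice were both below the NT mice, with a difference of -0.17 ± 0.07 (SE; adjusted p = 0.0767), which did not pass the threshold. Ndufs7, which carries the last iron-sulfur cluster before ubiquinone, is described because it was called, and was chosen after its values were seen. It was at 13.91 and 13.87 (NT), 13.63 and 13.67 (Ctrl-F), 13.62 and 13.65 (Cap-F) and 13.61 and 13.70 (ODNcap-F). Its difference was -0.24 ± 0.07 (SE; adjusted p = 0.021) after quantile normalization and -0.01 after 75th percentile scaling, so its fall depended on the scaling.

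The accessory subunits of the Ndufa series surround the core, and 6 of 13 rose and 2 fell in Ctrl-F against NT. Ndufa4 is counted among the 13 by its symbol. The shares were 46.2% and 15.4%, beside 33.8% and 34.6% of the bright genes. Ndufa1 was at 13.87 and 13.96 (NT), 14.58 and 14.52 (Ctrl-F), 14.54 and 14.38 (Cap-F) and 14.49 and 14.52 (ODNcap-F). Every OVA-exposed mouse was above both NT mice, and the Ctrl-F difference was 0.64 ± 0.08 (SE; adjusted p = 0.00105). Ndufa9, a nucleotide-binding subunit of the matrix arm, was at 11.50 and 11.49 (NT), 11.89 and 11.88 (Ctrl-F), 11.83 and 11.76 (Cap-F) and 11.93 and 11.81 (ODNcap-F). It rose by 0.38 ± 0.07 (SE; adjusted p = 0.00483). Ndufa4, a subunit first assigned to complex I and now placed in complex IV, was at 12.98 and 13.09 (NT), 13.29 and 13.29 (Ctrl-F), 13.20 and 13.19 (Cap-F) and 13.32 and 13.36 (ODNcap-F). Its rise was 0.25 ± 0.07 (SE; adjusted p = 0.0209), with every OVA-exposed mouse above both NT mice.

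Ndufa2, a small subunit of the matrix arm, was at 14.21 and 14.19 (NT), 14.38 and 14.50 (Ctrl-F), 14.31 and 14.36 (Cap-F) and 14.43 and 14.53 (ODNcap-F). It rose by 0.24 ± 0.08 (SE; adjusted p = 0.0317). Ndufa10, a subunit of the matrix face, was at 11.93 and 11.95 (NT), 12.14 and 12.19 (Ctrl-F), 12.07 and 12.03 (Cap-F) and 12.13 and 12.00 (ODNcap-F). Its rise was 0.22 ± 0.07 (SE; adjusted p = 0.0378). Ndufa3, a small membrane subunit, was at 14.01 and 14.02 (NT), 14.20 and 14.25 (Ctrl-F), 14.15 and 14.16 (Cap-F) and 14.17 and 14.29 (ODNcap-F) and rose by 0.21 ± 0.07 (SE; adjusted p = 0.0379). Ndufa3 was among the 9 members with a second usable probe, and that dimmer probe gave 0.52, more than the 0.21 of the brighter one.

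Ndufa13, also known as GRIM-19, had the largest p of the series, at 15.17 and 15.18 (NT), 15.17 and 15.24 (Ctrl-F), 15.20 and 15.17 (Cap-F) and 15.18 and 15.12 (ODNcap-F). Its groups overlapped and the Ctrl-F difference was 0.03 ± 0.07 (SE; adjusted p = 0.696). Ndufa12, Ndufa11 and Ndufa8 had differences of 0.20, 0.22 and 0.19 with adjusted p = 0.0592, 0.0751 and 0.0737. That of Ndufa6 was -0.09 with adjusted p = 0.293. After 75th percentile scaling Ndufa13, Ndufa12 and Ndufa8 were called higher, at 0.40, 0.36 and 0.27, and Ndufa11 at 0.26 was not called. Ndufa5 and Ndufa7, chosen after their values were seen, were called lower, with differences of -0.26 ± 0.07 (SE; adjusted p = 0.0207) and -0.22 ± 0.07 (SE; adjusted p = 0.0275), and were at -0.02 and 0.04 after 75th percentile scaling, neither called. Both probes of Ndufa5 gave -0.26.

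The Ndufb and Ndufc subunits belong to the membrane arm, and 6 of 12 rose and 1 fell. That was 50% and 8.33%, beside 33.8% and 34.6% of the bright genes. Ndufb5 was at 13.18 and 13.20 (NT), 13.70 and 13.71 (Ctrl-F), 13.66 and 13.59 (Cap-F) and 13.73 and 13.68 (ODNcap-F). All OVA-exposed mice were above both NT mice, with a Ctrl-F difference of 0.52 ± 0.06 (SE; adjusted p = 0.000937). Ndufb6 was at 12.05 and 12.01 (NT), 12.51 and 12.53 (Ctrl-F), 12.41 and 12.26 (Cap-F) and 12.42 and 12.42 (ODNcap-F). It rose by 0.49 ± 0.07 (SE; adjusted p = 0.00207), and the Cap-F mice lay between the NT and the Ctrl-F mice. Ndufb7 was at 13.82 and 13.74 (NT), 14.02 and 14.06 (Ctrl-F), 13.95 and 13.96 (Cap-F) and 14.04 and 14.07 (ODNcap-F), a rise of 0.26 ± 0.07 (SE; adjusted p = 0.0158) in Ctrl-F. Ndufb8 was at 14.22 and 14.20 (NT), 14.47 and 14.45 (Ctrl-F), 14.31 and 14.29 (Cap-F) and 14.44 and 14.39 (ODNcap-F). In Ctrl-F it rose by 0.25 ± 0.06 (SE; adjusted p = 0.0138).

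Ndufc1 was at 13.33 and 13.31 (NT), 13.54 and 13.55 (Ctrl-F), 13.51 and 13.41 (Cap-F) and 13.46 and 13.53 (ODNcap-F). Its Ctrl-F rise was 0.22 ± 0.07 (SE; adjusted p = 0.0323). Ndufb2 was at 12.52 and 12.54 (NT), 12.68 and 12.76 (Ctrl-F), 12.64 and 12.60 (Cap-F) and 12.72 and 12.76 (ODNcap-F) and rose by 0.19 ± 0.07 (SE; adjusted p = 0.0464). Both genes had all OVA-exposed mice above both NT mice. Ndufb3, with the largest p of the class, was at 12.97 and 12.97 (NT), 12.99 and 12.99 (Ctrl-F), 12.97 and 12.88 (Cap-F) and 12.96 and 12.97 (ODNcap-F), and its Ctrl-F difference of 0.02 ± 0.06 (SE; adjusted p = 0.852) did not pass the threshold, although the Ctrl-F mice lay just above the NT mice. Ndufb9, Ndufb11, Ndufb10 and Ndufc2 were not called and differed by 0.12, -0.02, -0.08 and -0.09. After 75th percentile scaling Ndufb10 and Ndufb11 turned to 0.20 and 0.28 and were called higher, as was Ndufb9 at 0.35. Ndufb4, chosen after its values were seen, was called lower, with a difference of -0.26 ± 0.06 (SE; adjusted p = 0.0149), and was at 0.00 after that scaling, with adjusted p = 0.963.

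The names Ndufs and Ndufv also cover 4 accessory subunits, and 2 of them rose and none fell. The rises were 50%, where 33.8% of the bright genes rose and 34.6% fell. Ndufs4, a subunit whose loss in mice is used as a model of the mitochondrial disease Leigh syndrome, was at 12.06 and 12.05 (NT), 12.49 and 12.38 (Ctrl-F), 12.43 and 12.40 (Cap-F) and 12.54 and 12.54 (ODNcap-F). It rose by 0.38 ± 0.07 (SE; adjusted p = 0.00379) in Ctrl-F, and both ODNcap-F mice were the highest of all 8. Ndufv3, a small subunit of the NADH-binding end, was at 14.03 and 13.96 (NT), 14.16 and 14.24 (Ctrl-F), 14.14 and 14.13 (Cap-F) and 14.21 and 14.17 (ODNcap-F) and rose by 0.20 ± 0.07 (SE; adjusted p = 0.0419). Ndufs5, which faces the intermembrane space, was at 14.00 and 13.92 (NT), 13.90 and 13.92 (Ctrl-F), 13.88 and 13.87 (Cap-F) and 13.89 and 13.90 (ODNcap-F). Its difference of -0.05 ± 0.06 (SE; adjusted p = 0.52) was not called, and after 75th percentile scaling it was 0.20 and called higher. Ndufs6, which binds zinc, differed by 0.10 ± 0.06 (SE; adjusted p = 0.18), and by 0.38, called higher, after 75th percentile scaling.

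All 4 genes of complex II had higher mean levels in Ctrl-F than in NT, and 3 rose. The 3 were 75% of the class, beside 33.8% of the bright genes. Sdhd was at 12.37 and 12.45 (NT), 13.21 and 13.14 (Ctrl-F), 13.13 and 13.04 (Cap-F) and 13.15 and 12.98 (ODNcap-F). The highest NT mouse, at 12.45, was below the lowest OVA-exposed mouse, at 12.98, and the Ctrl-F difference was 0.77 ± 0.09 (SE; adjusted p = 0.000689). Sdhc, the other membrane anchor, which helps to bind ubiquinone, was at 11.54 and 11.46 (NT), 11.82 and 11.88 (Ctrl-F), 11.78 and 11.75 (Cap-F) and 11.89 and 11.76 (ODNcap-F). Its rise was 0.35 ± 0.08 (SE; adjusted p = 0.00827). Sdhb, the iron-sulfur subunit, was at 14.05 and 14.05 (NT), 14.29 and 14.24 (Ctrl-F), 14.25 and 14.17 (Cap-F) and 14.30 and 14.22 (ODNcap-F) and rose by 0.21 ± 0.07 (SE; adjusted p = 0.0397). The dimmer probe of Sdhb gave 0.41. Sdha, the flavoprotein that oxidizes succinate, was at 12.94 and 12.93 (NT), 13.04 and 13.02 (Ctrl-F), 12.91 and 12.87 (Cap-F) and 13.02 and 12.91 (ODNcap-F). Both Ctrl-F mice were above both NT mice, but the difference of 0.09 ± 0.07 (SE; adjusted p = 0.291) did not pass the threshold. Both Cap-F mice were below the NT mice. After 75th percentile scaling the Ctrl-F difference of Sdha was 0.23 and called higher.

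In complex III, 3 of 8 genes rose and none fell. The share that rose, 37.5%, was near the 33.8% of the bright genes, of which 34.6% fell. Uqcrfs1, which moves electrons from ubiquinol to cytochrome c1, was at 12.18 and 12.15 (NT), 12.82 and 12.84 (Ctrl-F), 12.72 and 12.69 (Cap-F) and 12.85 and 12.78 (ODNcap-F). Its Ctrl-F difference was 0.66 ± 0.06 (SE; adjusted p = 0.00038). Uqcrq was at 14.65 and 14.62 (NT), 15.27 and 15.29 (Ctrl-F), 15.13 and 15.07 (Cap-F) and 15.27 and 15.26 (ODNcap-F). It had the smallest p of all members in Ctrl-F against NT, with a difference of 0.64 ± 0.06 (SE; adjusted p = 0.000379), and the Cap-F mice lay below the other OVA-exposed mice. Uqcrc1, a core protein on the matrix side, was at 12.84 and 12.84 (NT), 13.24 and 13.24 (Ctrl-F), 13.08 and 13.12 (Cap-F) and 13.17 and 13.21 (ODNcap-F) and rose by 0.40 ± 0.06 (SE; adjusted p = 0.00224).

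The other complex III genes were not called after quantile normalization. After 75th percentile scaling all of them were called higher, at 0.24 to 0.54, where the median of the bright genes was 0.14. Uqcr11, a small subunit, had the largest p of the complex and was at 14.20 and 14.17 (NT), 14.18 and 14.22 (Ctrl-F), 14.17 and 14.16 (Cap-F) and 14.15 and 14.24 (ODNcap-F), a difference of 0.01 ± 0.07 (SE; adjusted p = 0.896) with overlapping groups. Uqcrh, the hinge protein beside cytochrome c1, differed by 0.15, Uqcr10 by 0.13, Uqcrc2, the partner of Uqcrc1, by 0.11 and Uqcrb, which lies near the quinone site, by 0.06. The dimmer probe of Uqcrb was called, at 0.22 with adjusted p = 0.0319 by limma's test. In all 9 members with 2 usable probes, both probes had the same sign, and the dimmer one gave the higher signed difference in each, though the values were close in Sdha (0.10 and 0.09) and in Ndufa5 (both -0.26).

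**Figure D3:**
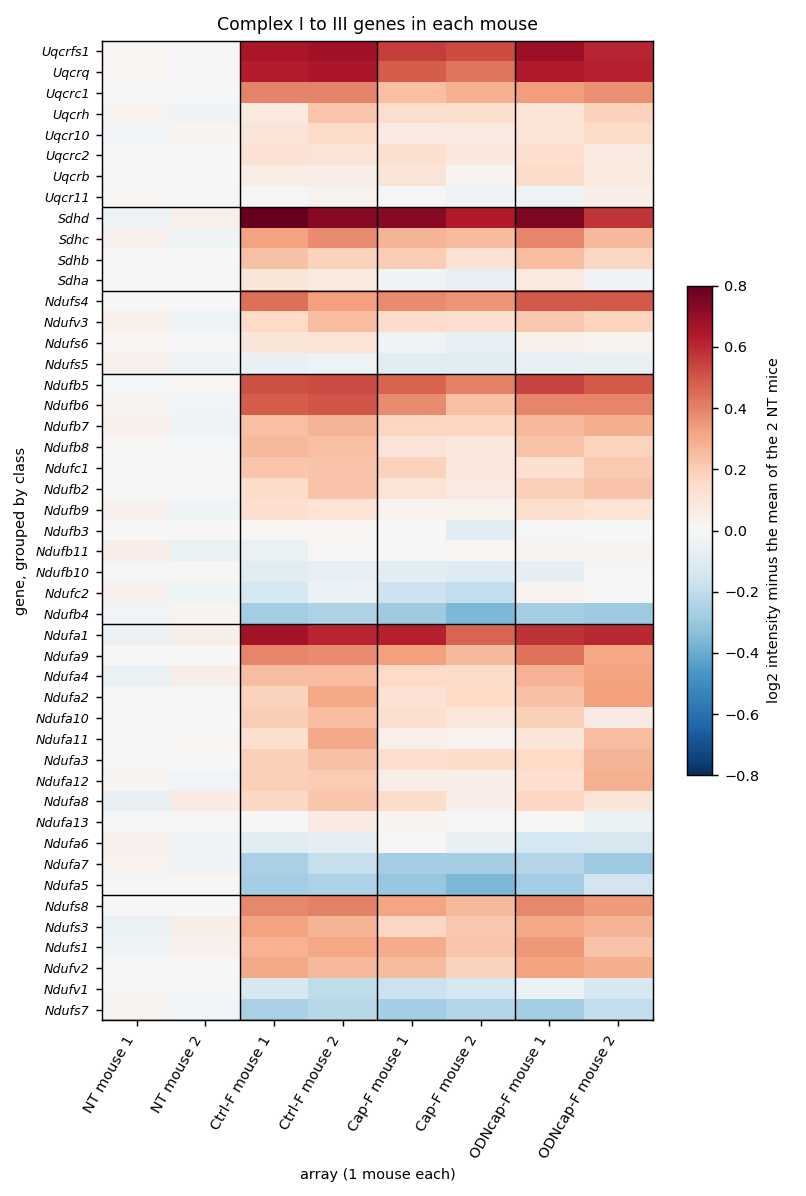
Level of 47 of the 48 genes (rows, grouped by class) in each of the 8 mice (columns) as the log2 intensity minus the mean of the 2 NT mice. Red is above and blue below the NT mean. Sdhd, Uqcrfs1, Uqcrq and Ndufa1 are the darkest red in all 6 OVA-exposed mice. Ndufa5, Ndufa7, Ndufb4 and Ndufs7, which fell in Ctrl-F against NT, are below the NT mean in all 6. So are Ndufv1, Ndufb10 and Ndufs5, which were not called there.

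The 3 comparisons of OVA-exposed groups with NT share the NT mice, so their values are given side by side and not as independent support. In Cap-F against NT, 13 members rose and 4 fell (27.1% and 8.33%, 35.4% together), where 24.1% and 32.4% of all genes tested did (56.6% together), with a median of 0.10. Among the bright genes 31.7% rose and 32% fell in that comparison, so the share of members that rose was near that of all genes and below that of the bright genes. In ODNcap-F against NT, 22 rose and 4 fell (45.8% and 8.33%, 54.2% together), where 25.1% and 34.9% of all genes tested did (60% together), with a median of 0.17, and 32.8% of the bright genes rose and 33.8% fell. In 75th percentile scaling the counts were 23 higher and 0 lower for Cap-F and 35 higher and 0 lower for ODNcap-F, with medians of 0.20 and 0.33. That scaling moved the bright genes upward too, to medians of 0.06 and 0.12, with 36.2% and 41.5% of them higher and 27.9% and 26.9% lower. The members that were higher were then 47.9% and 72.9%. Taking the groups in the order Ctrl-F, Cap-F, ODNcap-F, Sdhd differed from NT by 0.77, 0.68 and 0.66. Uqcrfs1, with the smallest p of the members in Cap-F against NT, differed by 0.66, 0.54 and 0.65, and Uqcrq, with the smallest p in ODNcap-F against NT, by 0.64, 0.46 and 0.63. Each of these was called, with adjusted p from 0.000379 to 0.00156 by limma.

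The comparisons among the OVA-exposed groups ask whether the feed changed these genes. No member was called by limma's adjusted p in any of the 3 comparisons, and none by the local-pooled-error test. At an unadjusted p under 0.05 the counts were 0 for ODNcap-F against Ctrl-F, 2 higher for ODNcap-F against Cap-F and 4 lower for Cap-F against Ctrl-F. The shares of all genes tested at that p were 3.69% higher and 3.09% lower, 5.98% and 7.4%, and 8.99% and 7.65% in the same order. Of all genes tested, limma called 0, 1 (0.00345%) and 1 (0.00345%). Over the 48 members the 95% intervals ran from -0.32 to 0.28 for ODNcap-F against Ctrl-F, from -0.27 to 0.37 for ODNcap-F against Cap-F and from -0.40 to 0.22 for Cap-F against Ctrl-F.

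ODNcap-F and Ctrl-F were the closest pair, with a median difference of -0.01 over the members. Ndufs4 had the smallest p, at 0.11 (95% interval -0.06 to 0.27; adjusted p = 0.804). The ranges of the groups did not overlap in 6 members that were higher and 12 that were lower in ODNcap-F, where 17% and 18.6% of all genes tested were.

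Cap-F was lower than both other OVA-exposed groups for most members. The mean level over the 48 genes was 13.46 and 13.43 with Cap-F feed, compared with 13.51 and 13.53 (Ctrl-F) and 13.51 and 13.50 (ODNcap-F), and both NT mice were at 13.33. In Cap-F against Ctrl-F 44 members were lower, with a median of -0.08. Of the 28992 genes tested 14301 were lower, and of the 6244 bright genes 3081. Without overlap, 35 members were lower and 1 was higher in Cap-F, where 25.8% and 25.9% of all genes tested were. Uqcrq had the smallest p, at -0.18 (95% interval -0.33 to -0.03; adjusted p = 0.252). The row of the slide and the feed cannot be told apart in that comparison.

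ODNcap-F and Cap-F shared a row of the slide. Of the 48 members, 45 were higher in ODNcap-F, with a median of 0.07. Among the 28992 genes tested 13872 were higher, and among the 6244 bright genes 2974. Without overlap, 28 members were higher and 1 was lower in ODNcap-F, where 21% and 24.7% of all genes tested were. Ndufc2, a membrane-arm subunit, had the smallest p and was at 13.86 and 13.80 (NT), 13.69 and 13.79 (Ctrl-F), 13.66 and 13.63 (Cap-F) and 13.86 and 13.83 (ODNcap-F). The ODNcap-F mice exceeded the Cap-F mice, without overlap, by 0.20 (95% interval 0.03 to 0.36; adjusted p = 0.344). Members are not replicates of each other, so these counts over genes rest on 2 mice a group, and the smallest exact two-sided permutation p for 2 against 2 is 0.333.

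**Figure D4:**
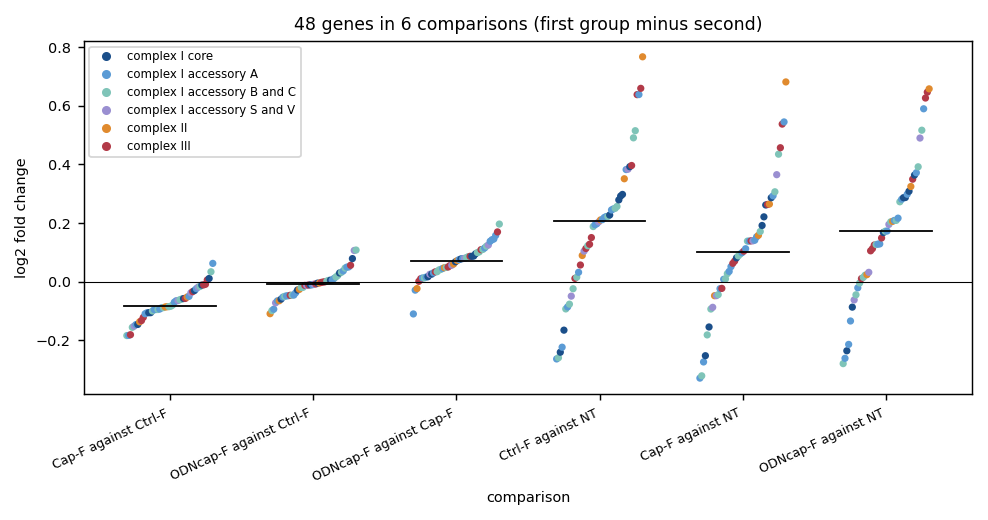
Difference of each of the 48 genes (points, coloured by class) in 6 comparisons (x axis), as log2 fold change of the first group minus the second (y axis), with black lines at the medians. The 3 comparisons against NT have medians of 0.21, 0.10 and 0.17, and those among the OVA-exposed groups lie at -0.08, -0.01 and 0.07.

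Genes that work beside complexes I to III were described by lists, in Ctrl-F against NT, where 26.2% of all genes tested rose and 35.7% fell. Of 15 subunits of the ATP synthase, complex V, 10 rose and none fell, with a median of 0.31. Among them Atp5pb, a subunit of its stalk, was at 13.70 and 13.67 (NT), 14.16 and 14.19 (Ctrl-F), 14.18 and 14.11 (Cap-F) and 14.21 and 14.06 (ODNcap-F), a difference of 0.49 ± 0.08 (SE; adjusted p = 0.00252). Of 16 complex IV genes, among which Ndufa4 was not counted, 4 rose and 6 fell, shares near those of all genes tested. Cox5a, a subunit found in all tissues, rose by 0.82 ± 0.06 (SE; adjusted p = 0.000148), and Cox7c and Cox7b by 0.61 and 0.60. Those that fell were Cox8b, Cox6a2 and Cox7a1, the forms known from heart and skeletal muscle, at -3.19, -1.58 and -1.06, and Ndufa4l2, Cox6b2 and the lung form Cox4i2 at -1.15, -1.08 and -0.76.

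Of 12 genes of electron carriers and their synthesis 6 rose and 2 fell. Cycs, cytochrome c itself, was at 13.03 and 13.07 (NT), 13.82 and 13.87 (Ctrl-F), 13.79 and 13.77 (Cap-F) and 13.84 and 13.87 (ODNcap-F) and rose by 0.79 ± 0.06 (SE; adjusted p = 0.000183). Cyc1, the cytochrome c1 of complex III, which the naming rule leaves out, rose by 0.34 ± 0.06 (SE; adjusted p = 0.00508). Ndufab1, the acyl carrier protein of complex I, also outside the rule, rose by 1.22 ± 0.10 (SE; adjusted p = 0.000222). Of 23 assembly factors 4 rose and 2 fell, with a median of 0.03. Ttc19, which acts on complex III, rose by 0.42 and Tmem126b, which acts on complex I, by 0.35. Uqcc1, which assists cytochrome b, fell, at -0.43.

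Of 14 citrate cycle genes 6 rose and 3 fell, with Idh3a at 0.45 and Sucla2 at -0.87. Of 15 regulators of mitochondrial biogenesis 4 rose, a share near that of all genes tested, and 4 fell. Their differences ran from -0.96 to 1.27, with a median of 0.14. Ppargc1b and Esrra, described next, were among the 4 that rose, so they do not stand for the list. Ppargc1b, a coactivator of respiratory genes, was at 7.95 and 8.13 (NT), 9.31 and 9.31 (Ctrl-F), 9.36 and 9.25 (Cap-F) and 9.18 and 9.13 (ODNcap-F) and rose by 1.27 ± 0.09 (SE; adjusted p = 0.000109). Esrra, an estrogen-related receptor that it works with, rose by 0.41 ± 0.07 (SE; adjusted p = 0.00426). Nrf1, Yy1 and Tfam, at -0.13, 0.16 and 0.17, were not called. Of 7 genes of uncoupling and fuel choice 1 rose and 4 fell, with Pdk4, a kinase that shuts off pyruvate dehydrogenase, at -1.45. After 75th percentile scaling none of the called genes of these lists changed sign, and Idh2, Ogdh, Ppargc1a and Cpt1a lost their call. The complex IV genes were then 9 higher and 6 lower, those of the citrate cycle 7 and 1 and those of uncoupling and fuel choice 2 and 3, and all 15 complex V genes were higher. Genes of the mitochondrial genome were not analysed here, because no probe was matched to them by name.

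RNA levels of cell type markers also differed in the same comparison, in which 26.2% of all genes tested rose and 35.7% fell. The 6 alveolar type II markers, from cells particular to lung, were well above background on all arrays. In Ctrl-F against NT all 5 eosinophil, all 5 B and plasma cell and all 4 goblet cell markers rose, as did 3 of 4 T cell markers and 1 of 4 smooth muscle markers, while 4 of 6 macrophage markers rose and 2 fell and 2 of 4 neutrophil markers rose and 1 fell. All 7 endothelial and all 4 alveolar type I markers fell, as did 4 of 7 ciliated, 2 of 3 club, 3 of 6 alveolar type II, 6 of 10 cardiomyocyte and 4 of 6 adipocyte markers, and of 5 fast skeletal muscle markers 1 rose and 1 fell. After 75th percentile scaling 3 alveolar type II markers, Abca3, Lamp3 and Sftpb, lost their call, and Lamp3 changed sign. Pdpn of the alveolar type I markers and S100a9, the neutrophil marker that fell, also lost their call in that scaling.

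The log2 of the summed cardiomyocyte markers was 15.14 and 14.13 (NT), 12.47 and 12.81 (Ctrl-F), 12.50 and 14.25 (Cap-F) and 13.87 and 14.46 (ODNcap-F). Cap-F mouse 1 was thus with the Ctrl-F mice and Cap-F mouse 2 with the others. The same sum for endothelial markers was 16.13 and 16.14 in NT and between 14.70 and 15.01 in the OVA-exposed mice, and for B and plasma cell markers 12.60 and 12.17 in NT and between 16.93 and 17.12 in the others. Macrophage markers summed to 15.37 and 15.29 in NT and between 17.16 and 17.21 in the others. The endothelial, B and plasma cell, macrophage, eosinophil, goblet, club, alveolar type I, alveolar type II and T cell sums separated NT from all OVA-exposed mice. The cardiomyocyte, ciliated, adipocyte, smooth muscle, fast skeletal muscle and neutrophil sums of NT and of the OVA-exposed mice overlapped. The part of these markers in the members' values was not tested.

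**Figure D5:**
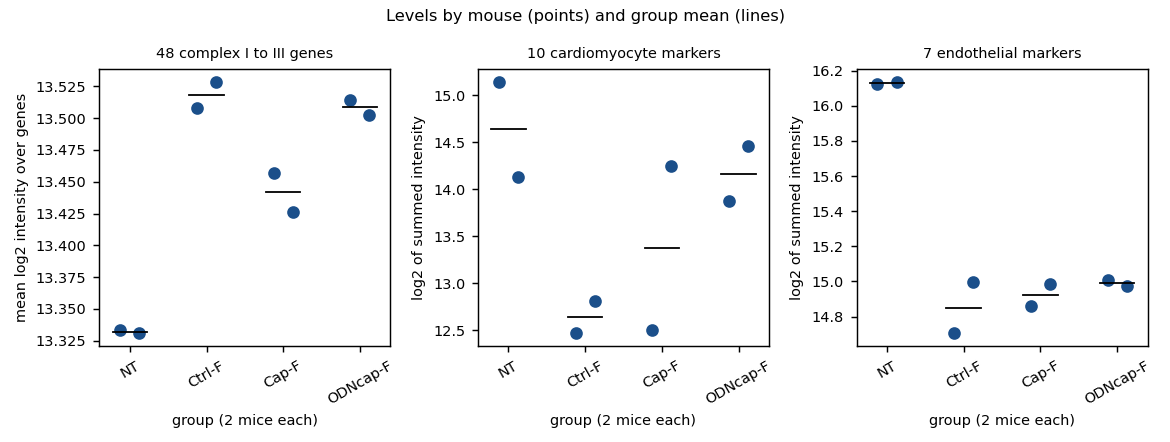
Mean log2 intensity of the 48 genes (left), and the log2 of the summed intensity of 10 cardiomyocyte markers (middle) and 7 endothelial markers (right), in each mouse (points) and as group means (lines), with the 4 groups on the x axis. The y axes do not start at 0 and differ in range; in the left panel NT is at 13.33, Cap-F at 13.46 and 13.43 and the other groups between 13.50 and 13.53, and in the middle panel the Cap-F mice are at 12.50 and 14.25.

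Of the 28 genes called in Ctrl-F against NT, 11 were called, and higher, in all 17 alternatives that gave a fold change: Ndufs8, Ndufa1, Ndufa9, Ndufb5, Ndufb6, Ndufs4, Sdhc, Sdhd, Uqcrq, Uqcrc1 and Uqcrfs1. In all of them 36 members were above 0, and Ndufs7 and Ndufa5 were below 0 in all of them. The same shares over all genes tested were not computed, so these counts stand without a background and say nothing particular to the members.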

How the data were processed

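Total lung RNA (100 ng) of 8 mice, 2 in each of 4 groups, was labelled with Cy3 and hybridised to Agilent mouse 8x60K arrays. Per the file headers, the authors deposited the scanner's processed intensity of each spot, already background-subtracted by Agilent Feature Extraction 11.0, and a table of log2 values of 32312 probes. Groups were taken from the sample labels. Here log2 processed intensities were quantile normalized over all 8 arrays, as in the study. The deposited log2 table differed from values rebuilt the same way on its probes by a median of 3.23e-07 and at most 0.125. Control spots and 792 flagged spot values were left out, spots of 1 probe were averaged, and 37116 of 56605 probes passed a filter that asked 1 or more groups to read well above background in both of its mice. Of the 58 probes of the members, 57 were kept.

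One limma 3.58.1 model (R 4.3.3) held the 4 groups and no covariate, with Benjamini-Hochberg adjustment over all kept probes at 0.05. It had 4 residual and 1.96 prior degrees of freedom. Each p measures the spread between mice on 1 slide. The study's local-pooled-error test, which takes its error from other probes of like intensity, was rebuilt as an alternative. The methods were tested on simulated data. The values of 1 member, which counts in every total, are not reported here. The genes and lists were chosen with earlier results of these data known. Named with the value of every mouse were, in each class, the 2 smallest and the largest p in Ctrl-F against NT, all of complex II, the smallest p in each other comparison and every member called higher in Ctrl-F; the 4 called lower were named after their values were seen. Alternatives were 75th percentile scaling, normexp background correction (offset 50), the deposited table, other filters, the mean of a gene's probes, an intensity trend, a replicate block, fits of 2 groups and leaving out each mouse. Promoter windows were taken from RefSeq (GRCm38.p6).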

Additional observations from a re-analysis of the deposited data

How the results depend on the processing

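With 2 mice a group and 4 residual degrees of freedom, the members' 95% intervals had a median half-width of 0.165 on the log2 scale. Low signal did not limit the members, since all 48 were well above background on every array. In all 9 members with 2 usable probes the dimmer one gave the higher signed difference, and the cause was not tested. The counts of members called against NT, with Ctrl-F first, Cap-F second and ODNcap-F last (28, 17 and 26), became 12, 10 and 10 by the local-pooled-error test, of which 12, 7 and 10 were higher (25%, 14.6% and 20.8% of the members, below the 29.5%, 27.8% and 26.1% of equally bright genes), and 0, 0 and 0 when a fold over 2 was also asked for. In ODNcap-F against NT a fit of only the 2 groups called 14. In that fit 27.1% of the members were higher and 2.08% lower, beside 27.4% and 29.3% of equally bright genes. At an unadjusted p under 0.05, ODNcap-F against Cap-F had 2 members and Cap-F against Ctrl-F had 4, where limma's adjusted p called none. After 75th percentile scaling the medians were 0.3998, 0.1982 and 0.3344 against NT. They were -0.04094 for ODNcap-F against Ctrl-F, 0.1523 for ODNcap-F against Cap-F and -0.1867 for Cap-F against Ctrl-F. The bright genes moved the same way in these comparisons of feeds, to medians of -0.02686, 0.05969 and -0.08528 in the same order. With normexp correction the medians of Cap-F and ODNcap-F against NT were 0.1206 and 0.1899, and with the mean of a gene's probes 0.1232 and 0.1964. The cause of these shifts was not tested. Other settings that gave a fold change and left out no single mouse included normexp correction, the deposited table, no filter and a filter on all arrays. The rest were the mean of a gene's probes, an intensity trend, the replicate block and a fit of only the 2 groups. In Ctrl-F against NT these settings called 19 to 36 members, and every median against NT stayed above 0. In them 33.3% to 64.6% of the members were higher, beside 30.7% to 37.7% of the bright genes. Lower were 6.25% to 10.4% of the members, beside 32% to 38.1% of the bright genes.

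In Ctrl-F against NT 8 members changed sign under 75th percentile scaling. Ndufb10 at 0.2018, Ndufb11 at 0.2821 and Ndufs5 at 0.2003 were called there, Ndufa7 at 0.03836 and Ndufb4 at 0.004309 had been called lower before, and Ndufv1 at 0.02987, Ndufa6 at 0.1767 and Ndufc2 at 0.1363 were called in neither scaling. No member was called with opposite signs in both scalings.

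Leaving out 1 mouse at a time gave 13 to 27 members called in Ctrl-F against NT, 9 to 17 in Cap-F against NT and 14 to 22 in ODNcap-F against NT, and 0 in each comparison among the OVA-exposed groups. Without Ctrl-F mouse 1 all 13 were higher. The count of Cap-F against NT was 10 without NT mouse 1, 9 without NT mouse 2, and 9 and 10 when Cap-F mouse 1 or 2 was left out, and that of ODNcap-F against NT 14 without NT mouse 1 and 15 without NT mouse 2. A group left with 1 mouse was assumed to vary like the others. Without 1 mouse of NT or Cap-F, a smaller share of members than of bright genes was called higher in Cap-F against NT. Without 1 mouse of NT or ODNcap-F, the members' share called higher in ODNcap-F against NT was only slightly above that of bright genes. With all mice it was 45.8% beside 32.8%. In each of these fits a far smaller share of members than of bright genes was called lower. The medians ranged from 0.1747 to 0.2262, 0.08642 to 0.1208 and 0.1616 to 0.1894 against NT, from -0.02043 to -0.001001 for ODNcap-F against Ctrl-F, 0.04988 to 0.0836 for ODNcap-F against Cap-F and -0.09589 to -0.05269 for Cap-F against Ctrl-F.

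Mice share only a replicate number: deviations of same-numbered mice correlated at -0.0123 to 0.161 across pairs of groups. With the replicate block, 25, 17 and 24 members were called against NT and 0 in the other comparisons. Higher were 43.8%, 27.1% and 43.8% of the members, beside 32.8%, 30.7% and 31.7% of the bright genes.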
